A study of Arabidopsis thaliana and Solanum lycopersicum with 40 samples.

Results

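Transcript levels in roots of shaded tomato seedlings were followed from 3 h to 12 and 24 h after the move to shade, to describe how the root transcriptome progresses within shade. The 6 libraries compared were 2 each at 3 h, 12 h and 24 h in shade, of 16 tomato libraries and 40 samples in the whole series. The 6 unshaded libraries of the same times gave the same contrast without shade and served as its check. Seedlings of the cultivar M82 had grown for 7 days in white light and then either stayed unshaded or went to shade, and whole roots were frozen at harvest. Every group therefore shared the cultivar, the age at transfer and the tissue, and the groups differed in light and in time after transfer. Of 34075 tomato genes, 20413 had a mean of at least 1 FPKM over all tomato libraries and were tested. FPKM (fragments per kilobase of transcript, scaled to a fixed number of mapped fragments) is a level corrected for transcript length and sequencing depth. The labels do not say what the shade light was. Ranges given below for unshaded roots cover the libraries at 3, 12 and 24 h unless other times are named.

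Shade light is poor in red relative to far-red light, and plants sense it mainly through phytochromes. Roots respond to it through light signalling of their own and through signals and sugars from the shoot, and root growth and branching are commonly reduced. Root growth itself rests on cell division in the meristem, on ribosomes that supply protein, and on wall-loosening enzymes that allow cells to elongate.

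The labels do not say whether the 2 libraries of a group came from separate plants or cultures, so p-values measure the spread between these libraries, which may be technical. Pearson's r between replicates, across genes, which are not independent replicates, was 0.957 to 0.982. Absolute depth is unknown. Relative depth, read from the steps of low values, was 0.669 and 0.885 in the shaded libraries at 3 h and 1.1 to 1.48 at 12 and 24 h in shade, so depth moved with the shaded contrast, and its part in the results was not tested. Unshaded libraries at 3 h lay at 0.975 to 1.14 and at 12 and 24 h at 1.01 to 1.28. The shaded 3 h library with the lowest depth, replicate 1, decides many calls: without it 3432 genes were called in the shaded contrast, against 8168 with it. Counts without this library are therefore given with the gene groups, and they are to be read against 6.77% of all tested genes called higher and 10.0% lower in that fit. With any 1 of the other 5 libraries left out these shares were 13.4% to 17.0% higher and 19.1% to 24.6% lower. Small counts of called members, of about 5 or fewer, often changed when any 1 library was left out.

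Markers of root and shoot tissue were both present. Of 7 genes described as Casparian strip membrane proteins, which mark the endodermis of roots, 6 passed the filter, and their summed level was 158 to 364 FPKM over the 16 libraries. Rubisco small subunit genes, which are typical of green tissue, summed to 477 and 490 FPKM in shaded roots at 3 h and to 208 to 246 at 12 and 24 h. In unshaded roots they summed to 433 and 580 at 3 h and to 257 to 686 later. Of 5 such genes 2 passed the filter and 2 were listed at 0 in all libraries. Of 166 photosystem and chlorophyll-binding genes 78 were listed at 0 in all libraries and 68 passed the filter.

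In shaded roots 8168 genes, 40.0% of those tested, differed between 12-24 h and 3 h at a limma adjusted p-value under 0.05. Of these 3471 rose (17.0% of tested genes) and 4697 fell (23.0%). The excess of falls depended on scaling, with 4006 higher and 4263 lower after scaling by the median of ratios and 2878 and 5102 when the sums of FPKM were made equal. At least 2-fold changes were made by 636 of the rising and 1257 of the falling genes. In unshaded roots 7 genes (0.0343%) were called over the same times, 3 of them higher (0.0147%) and 4 lower (0.0196%), although 2534 had an unadjusted p under 0.05. The unshaded split was 1 to 4 with the first scaling and 4 to 15 with the second. The median log2 change of all tested genes was -0.03 in shade and 0.00 without it.

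The difference between the lights was itself tested, and 3939 genes (19.3%) changed differently from 3 h to 12-24 h in shaded and unshaded roots. Among them 1480 (7.25%) changed more upward in shade and 2459 (12.0%) more downward. This count depended on single libraries of both lights: it was 181 without replicate 1 of the shaded 3 h group, 144 without replicate 2 and 1287 without replicate 1 of the unshaded 3 h group, 2159 without replicate 2 of the unshaded 24 h group and 2524 without replicate 2 of the shaded 12 h group.

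Genes called in shade had small median changes in unshaded roots. The 3471 rising genes had a median log2 change of 0.62 in shade and 0.07 without shade, where 62.1% of them were higher at 12-24 h. The 4697 falling genes had medians of -0.71 and -0.02, and 44.2% of them were higher in unshaded roots at the later times, against 51.0% of all tested genes. The later shaded libraries lay all above or all below both 3 h libraries for 10527 genes (51.6%). The same held for 5101 genes (25.0%) in unshaded roots.

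**Figure D1:**
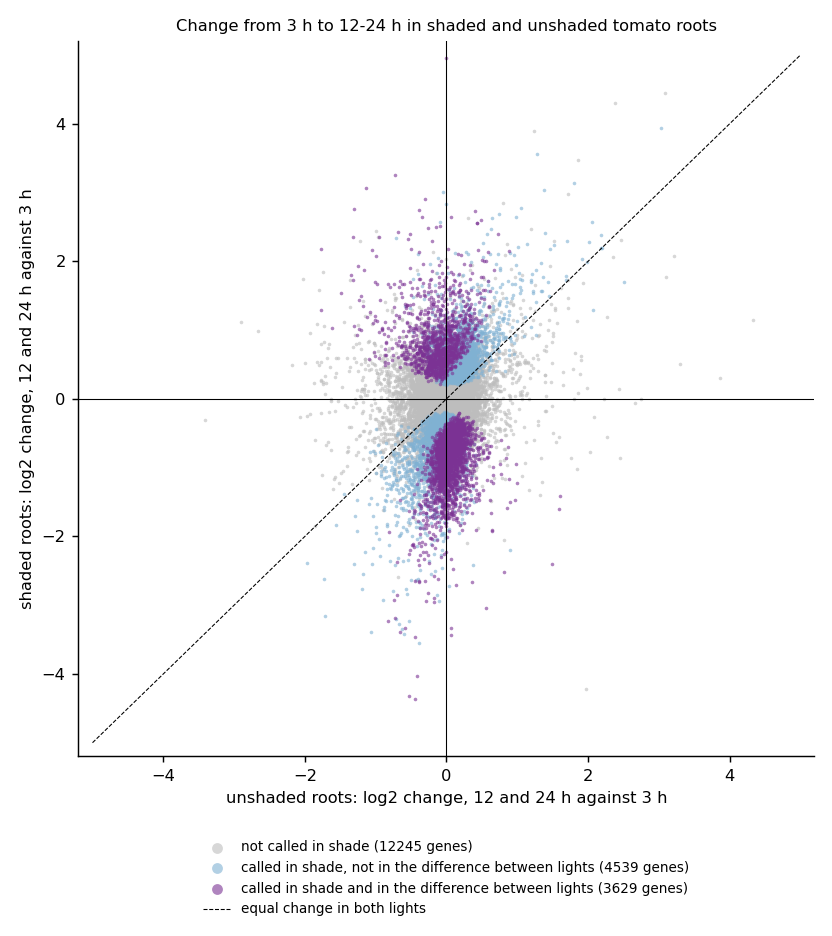
Each point is 1 of 20413 tested genes, with the log2 change from 3 h to 12-24 h in unshaded roots on the x axis and in shaded roots on the y axis. Genes called in shade spread along the y axis and have median changes near 0 on the x axis (0.07 for the rising and -0.02 for the falling genes). Of those called in shade 3629 were also called in the difference between lights and 4539 were not.

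Among the genes with the largest rises was an expansin-like gene, Solyc08g077900.3, related to the expansins that loosen cell walls. Its level in shade was 27.5 and 37.0 FPKM at 3 h, 302 and 371 at 12 h and 305 and 281 at 24 h. Such a gap between the later shaded libraries and those at 3 h was a condition for naming the largest rises and falls. Unshaded roots held 53.6 and 38.7 FPKM at 3 h and 12.7 to 62.6 later, so there the groups overlapped. The log2 fold change in shade was 3.25 ± 0.39 (SE, limma adjusted p = 0.000351). Further conditions for naming were a call in the difference between lights and at least 5 FPKM in the higher group. A contrast with unshaded roots was thus part of the choice of these genes. Genes outside the conditions were not ranked, and the highest log2 change in the heat shock list was 4.45.

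HOX6, Solyc07g062790.1, encodes a homeobox-leucine zipper transcription factor, of a family whose Arabidopsis members include shade-induced regulators of growth. It stood at 4.05 and 6.79 FPKM at 3 h, 45.1 and 45.6 at 12 h and 66.1 and 51.5 at 24 h in shade. Without shade it was at 3.03 and 3.70 at 3 h and at 0.234 to 1.59 later. The levels thus went apart with time, and the rise in shade was 3.06 ± 0.34 on the log2 scale (SE, limma adjusted p = 0.000274).

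The ethylene responsive factor E.2, Solyc09g089930.3, a transcription factor of the AP2/ERF family, was at 3.19 and 2.62 FPKM at 3 h, 16.4 and 26.9 at 12 h and 26.7 and 25.3 at 24 h. The R2R3MYB transcription factor 79, Solyc09g090790.3, went from 2.60 and 4.32 FPKM to 20.2 and 18.3 and then to 28.0 and 36.5. Neither gene was called between 12 and 24 h. Their log2 fold changes were 2.65 ± 0.30 and 2.56 ± 0.40 (SE). Another MYB gene, Solyc01g016770.1, was listed at 0 and 4.20 FPKM at 3 h and at 12.2 to 16.9 later. It rests on the library at 0: its limma adjusted p was 0.0293 with all libraries and 0.316 without that one, and the call was also lost with either later library of 12 or 24 h left out.

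A subunit of 2-oxoisovalerate dehydrogenase, Solyc04g063350.3, belongs to the complex that commits branched-chain amino acids to breakdown. It peaked in shade at 12 h, with 2.35 and 3.86 FPKM at 3 h, 45.2 and 62.7 at 12 h and 13.7 and 11.5 at 24 h. An N-acetyltransferase, Solyc12g096840.3, peaked likewise, from 3.57 and 4.31 FPKM to 44.0 and 60.7 and then 21.0 and 29.0. For both, all libraries at 24 h lay above those at 3 h, which was a condition for naming them. Their log2 fold changes over 12-24 h were 2.75 ± 0.43 and 2.90 ± 0.38 (SE).

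A lipid transfer protein gene, Solyc09g082280.3, of a family of small secreted proteins that bind lipids, behaved differently in time. Its level was 129 and 212 FPKM at 3 h, 462 and 451 at 12 h and 2624 and 2101 at 24 h in shade, and 422 to 542 in unshaded roots at these times. The rise from 12 to 24 h alone was 2.36 on the log2 scale (limma adjusted p = 0.045). The F-box gene Solyc10g052650.3, of a family that selects proteins for degradation, was at no more than 0.000586 FPKM at 3 and 6 h in shade and in all unshaded libraries. It stood at 27.9 and 30.4 FPKM at 12 h and 33.7 and 28.7 at 24 h. The gene passed the filter only through these later shaded libraries, so its p-value is not given as support. No fold change is given because the earlier level was near 0. The remaining rises among the 12 largest under the conditions for naming were Solyc08g005690.1, Solyc04g078450.4 and Solyc01g087180.4. They carry no functional description and had log2 fold changes of 2.56 to 2.73.

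The largest falls under the same conditions included 2 oxygenases and a cytochrome P450. Solyc06g073580.4, described as a 2-oxoglutarate and Fe(II)-dependent oxygenase, was at 70.0 and 131 FPKM at 3 h, 1.12 and 0.934 at 12 h and 9.22 and 10.8 at 24 h. Unshaded roots held 54.3 to 237 FPKM at these times. The cytochrome P450 gene Solyc12g088970.1 went from 14.7 and 33.2 FPKM to 0.0929 and 0.0469 at 12 h and to 0.568 and 0 at 24 h. The log2 fold changes were -4.36 ± 0.76 and -4.32 ± 0.69 (SE). The other oxygenase, Solyc11g045520.2, changed by -4.03 ± 0.80.

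Defensin SD2, Solyc04g008470.3, a small antimicrobial peptide, was at 175 and 127 FPKM at 3 h, 27.1 and 32.9 at 12 h and 3.00 and 8.89 at 24 h. The fruit-specific protein gene Solyc05g008150.3 went from 50.5 and 29.7 FPKM to 12.5 and 7.64 and then to 0.131 and 0.290. Both kept falling after 12 h, by 2.29 and 3.16 on the log2 scale (limma adjusted p = 0.0225 and 0.00271). In unshaded roots SD2 lay between 44.4 and 78.8 FPKM at these times. A pectin methylesterase inhibitor, Solyc03g083660.1, and the undescribed gene Solyc06g072845.1 changed by -3.19 ± 0.52 and -3.04 ± 0.61. The other falls among the 12 largest under the conditions for naming were genes of photosynthesis and a chalcone synthase, described with their groups.

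**Figure D2:**
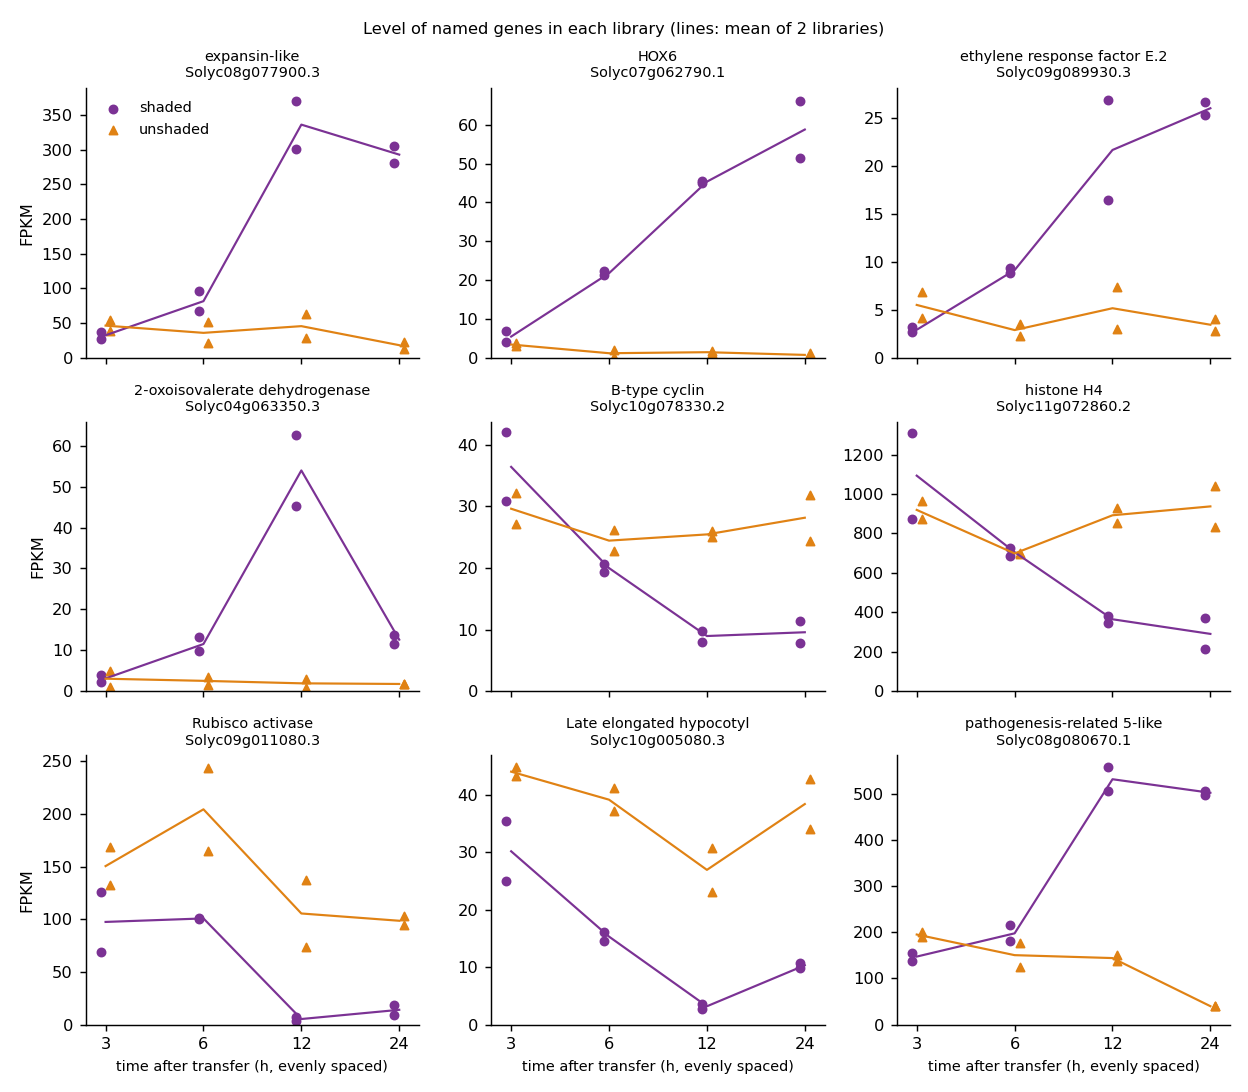
FPKM of 9 named genes on a linear axis against time after transfer in hours (evenly spaced), with 1 point per library, circles for shaded and triangles for unshaded roots, and lines through the mean of 2 libraries. Shaded libraries of the expansin-like gene reach 371 FPKM and those of the B-type cyclin come down to 7.76 FPKM, while the pathogenesis-related 5-like gene goes apart in opposite directions.

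Most ribosomal protein genes fell in shade. Of 235 cytosolic ribosomal protein genes 194 were tested, and 143 fell and 3 rose, against 23.0% and 17.0% of all tested genes. Their median log2 change was -0.66 in shade and 0.09 without it. Between the lights 124 of them differed (63.9%, against 19.3% of all tested genes), all with the lower change in shade. For this and the other lists, counts in the difference between lights were not refitted without single libraries. The count over all tested genes depended on such libraries. The summed level was 91500 and 67400 FPKM at 3 h, 60300 and 63500 at 12 h and 45400 and 52700 at 24 h in shade. In unshaded roots it was 68100 to 82000 throughout these times. The 2 libraries at 3 h in shade thus differed widely. Replicate 1 lay above every other library of these times and replicate 2 just below their lowest unshaded library. The unshaded libraries at 6 h, outside the contrast, summed to 53800 and 69800, the first below both shaded libraries at 12 h.

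Among the members with the lowest adjusted p, L23a of the large subunit, Solyc10g086330.2, was at 184 and 144 FPKM at 3 h, 92.2 and 95.1 at 12 h and 65.3 and 81.6 at 24 h. S6 of the small subunit, Solyc12g096300.2, known as a target of growth signalling, was at 600 and 435 FPKM, then 262 and 243, then 172 and 227. All later libraries lay below both 3 h libraries, and the log2 fold changes were -0.97 ± 0.12 and -1.19 ± 0.16 (SE). L4 and S13, Solyc10g086010.2 and Solyc01g091220.3, changed by -1.26 and -1.08.

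Genes of chromosome duplication and cell division fell as well. Of 51 tested core histone genes, which package new DNA, 41 fell (80.4%, against 23.0% of all tested genes) and 1 rose. The median log2 change was -1.13 in shade and 0.11 without it. Of 15 cyclins 14 fell (93.3%) and 0 rose, with medians of -1.04 and -0.03. Of 33 DNA replication genes 19 fell (57.6%) and 2 rose, with medians of -0.53 and 0.07. The summed level of the replication genes did not fall in shade. It was 778 and 654 FPKM at 3 h, 1040 and 1090 at 12 h and 695 and 826 at 24 h. In bulk roots, fewer dividing cells and less RNA per cell cannot be told apart.

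A histone H4 gene, Solyc11g072860.2, was at 1311 and 875 FPKM at 3 h, 382 and 348 at 12 h and 212 and 368 at 24 h in shade. Unshaded roots held 834 to 1040 FPKM at these times, so the later shaded libraries lay below all unshaded ones. Its log2 fold change was -1.74 ± 0.21 (SE), and that of the histone H3 gene Solyc01g079110.4 was -1.65 ± 0.18. A B-type cyclin, Solyc10g078330.2, which drives entry into mitosis, was at 42.0 and 30.8 FPKM, then 9.84 and 8.06, then 7.76 and 11.4. It was at 24.5 to 32.1 FPKM without shade, and its log2 fold change in shade was -1.86 ± 0.17 (SE, limma adjusted p = 0.000212). Cyclin A1, Solyc11g005090.2, and cyclin B2, Solyc02g082820.3, changed by -1.24 and -1.33.

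The replication genes that fell included some for the supply of deoxyribonucleotides and some for copying DNA. A ribonucleotide reductase gene, Solyc04g012060.3, whose enzyme makes deoxyribonucleotides, was at 27.1 and 22.6 FPKM at 3 h, 11.8 and 9.93 at 12 h and 8.42 and 11.3 at 24 h. MCM7, Solyc01g079500.4, a subunit of the replicative helicase, was at 28.2 and 21.2, then 8.80 and 9.12, then 6.24 and 9.18 FPKM. Neither group of later libraries overlapped with 3 h, and the log2 fold changes were -1.19 ± 0.12 and -1.46 ± 0.16 (SE). Without replicate 1 of the shaded 3 h group, 56 ribosomal protein (28.9%), 27 histone (52.9%), 7 cyclin (46.7%) and 11 replication genes (33.3%) fell, against 10.0% of all tested genes in that fit, and all but 1 ribosomal protein gene were among the falls with all libraries. The medians were -0.44, -0.83, -0.79 and -0.43. How reads shared by near-identical copies were assigned is not given in the sources used here, so single ribosomal and histone genes are uncertain.

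**Figure D3:**
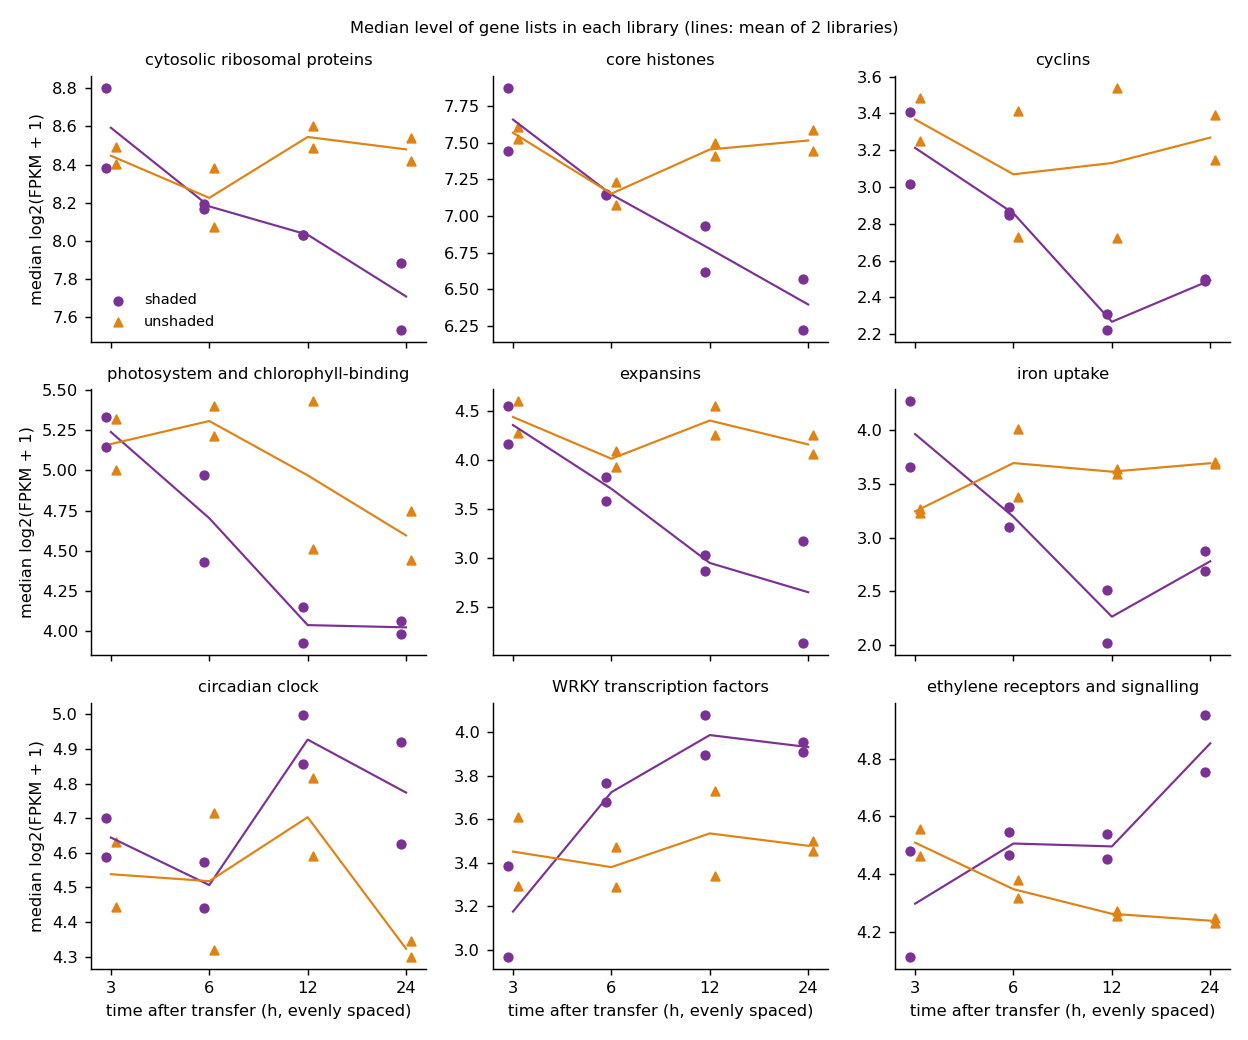
Median log2(FPKM + 1) over the tested members of 9 gene lists in each library, against time after transfer in hours (evenly spaced), with circles for shaded and triangles for unshaded libraries and lines through the mean of 2 libraries. In shade the medians of ribosomal proteins, histones, cyclins and expansins come down from 3 h to 12 and 24 h, whereas that of WRKY factors goes up from 2.97 and 3.38 to between 3.90 and 4.08.

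Cell wall genes fell more often than they rose. Over 5 lists of such genes 93 of 195 tested members fell (47.7%) and 15 rose (7.69%), against 23.0% and 17.0% of all tested genes, and without replicate 1 of the shaded 3 h group 36 fell (18.5%, against 10.0%). Of 24 tested expansins 15 fell and 2 rose, with a median log2 change of -0.97 in shade and -0.21 without it. The summed level of the expansins did not fall in shade. It was 632 and 572 FPKM at 3 h, 784 and 743 at 12 h and 605 and 698 at 24 h. Expansin Solyc02g081210.3 was at 21.7 and 14.8 FPKM at 3 h, 9.56 and 9.62 at 12 h and 5.38 and 7.95 at 24 h in shade, and at 16.6 to 21.5 without it. Expansin Solyc05g052250.3 was at 12.4 and 9.64, then 4.08 and 2.51, then 0.456 and 2.36 FPKM. The 24 h libraries differed from each other in this group, with expansin medians of 2.13 and 3.17 on the log2(FPKM + 1) scale. The expansin-like gene Solyc08g077900.3 described above is one of the members that rose.

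Xyloglucan-modifying enzymes, which cut and rejoin wall polymers, fell in 12 and rose in 1 of 26 members. The riser, Solyc05g046290.3, went from 17.1 and 23.7 FPKM to 68.6 and 85.6 at 12 h and 93.8 and 47.0 at 24 h, by 1.78 ± 0.27 (SE, log2). Of 57 pectin-modifying enzymes 31 fell and 5 rose. Among them a pectin acetylesterase, Solyc08g075020.3, rose to a peak at 12 h, from 4.33 and 6.55 FPKM to 26.3 and 32.9 and then 12.6 and 11.3. A pectate lyase, Solyc03g071570.3, fell from 17.6 and 14.3 FPKM to 7.56 and 6.98 and then 2.63 and 6.32.

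Cellulose synthases, the enzymes at the plasma membrane that spin cellulose, fell in 8 and rose in 3 of 22 members. Solyc09g075550.3 was at 16 and 14.3 FPKM at 3 h, 5.08 and 3.19 at 12 h and 4.82 and 6.05 at 24 h, whereas Solyc03g005450.3 was at 19.9 and 26.6, then 53.5 and 50, then 35.0 and 42.1. These members moved in opposite directions, by -1.51 ± 0.15 and 0.92 ± 0.13 (SE, log2). Extensins and arabinogalactan proteins, structural glycoproteins of the wall, fell in 27 and rose in 4 of 66 members, with a median of -0.68 in shade and -0.16 without it.

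The fasciclin-like arabinogalactan protein 7, Solyc07g048090.2, was at 225 and 198 FPKM at 3 h, 122 and 87.4 at 12 h and 72.5 and 96.0 at 24 h, and at 225 to 278 without shade. With replicate 1 of the shaded 3 h group left out, the falling members were 4 expansins, 2 xyloglucan-modifying enzymes, 10 pectin-modifying enzymes, 7 cellulose synthases and 13 extensins and arabinogalactan proteins. At 7.69% the share of xyloglucan-modifying enzymes then lay below that of all tested genes. The medians of these lists then stayed below 0, with -0.82 for the expansins.

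Genes of photosynthesis fell too, although roots hold little of this machinery. Of 68 tested photosystem and chlorophyll-binding genes 44 fell (64.7%, against 23.0% of all tested genes) and 1 rose. The median log2 change was -1.17 in shade and -0.27 in unshaded roots, and 11 differed between the lights. These 11 are 16.2% of the list, below the 19.3% of all tested genes that differed. Their summed level was 5130 and 6160 FPKM at 3 h, 3620 and 4150 at 12 h and 3290 and 3320 at 24 h in shade. Unshaded roots summed to 4740 to 6050 at 3 h, 4010 to 7260 at 12 h and 3700 to 4270 at 24 h. The unshaded libraries thus also reached levels near those of shaded roots. The Rubisco small subunit sums given above moved with this group, and the part of shoot tissue in it was not tested.

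A chlorophyll a-b binding protein gene, Solyc07g047850.3, of the light-harvesting antenna, was at 144 and 174 FPKM at 3 h, 26.2 and 25.0 at 12 h and 25.4 and 27.0 at 24 h in shade. Unshaded roots held 97.0 to 205 FPKM, above all later shaded libraries, and the change in shade was -2.57 ± 0.28 (SE, log2). The antenna genes Solyc02g071030.2, Solyc03g005780.3 and Cab-5, Solyc12g006140.2, changed by -3.39, -3.34 and -3.24. These 3 were among the 12 largest falls that were also called in the difference between lights. Rubisco activase, Solyc09g011080.3, which restores the carbon-fixing enzyme to its active form, was at 68.9 and 126 FPKM at 3 h, 7.19 and 3.58 at 12 h and 9.49 and 18.8 at 24 h. It changed by -3.33 ± 0.36, against -0.58 without shade. A second activase gene, Solyc10g086580.2, fell by 1.37 on the log2 scale and lost its call without replicate 2 of the shaded 3 h group (adjusted p = 0.063). Without that library the median log2 change of the photosystem genes was -0.96, and without replicate 1 it was -1.28. Fewer of these genes were called lower in both fits than with all libraries. Antenna genes are similar in sequence, so values of single members are uncertain.

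Flavonoid synthesis, which makes pigments and antioxidants from phenylalanine, fell in part, the entry step included. Of 15 tested genes 7 fell (46.7%, against 23.0% of all tested genes) and 1 rose, with medians of -0.64 in shade and -0.05 without it. Chalcone synthase 2, Solyc05g053550.3, the entry enzyme, was at 11.6 and 6.07 FPKM at 3 h, 0.035 and 0.239 at 12 h and 0.643 and 0.5 at 24 h, while unshaded roots held 5.37 to 20.6. A second chalcone synthase, Solyc05g053170.3, changed by -2.96 ± 0.61 (SE, log2). Chalcone isomerase family gene Solyc02g062170.3, of the next step, was at 35.0 and 24.2, then 9.39 and 7.86, then 7.98 and 10.3 FPKM. The riser was a flavonoid 3'-monooxygenase gene, Solyc03g115220.4, whose enzyme adds a hydroxyl group, with 0.77 ± 0.14. Without replicate 1 of the shaded 3 h group 4 of these genes fell (26.7%, against 10.0%), and the median was -0.15.

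The wider phenylpropanoid and lignin group rose in 13 (20.3%) and fell in 12 (18.8%) of 64 genes, near the shares of all tested genes. A phenylalanine ammonia-lyase gene, Solyc09g007920.4, the entry of the pathway, went from 116 and 145 FPKM to 271 and 246 and then 329 and 280, and another, Solyc10g086180.2, from 149 and 156 to 77.7 and 82.2 and then 57.8 and 89.3. A cinnamyl alcohol dehydrogenase gene, Solyc11g010990.3, of the last step to lignin precursors, fell from 64.7 and 52.0 FPKM to 22 and 14 and then 18.2 and 13.9. Members for the same step thus went in opposite directions. The median was -0.07 and ranged from -0.15 to 0.05 over the alternatives.

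Peroxidases, which cross-link wall polymers, rose in 15 (18.5%) and fell in 15 of 81 genes, also near the shares of all tested genes. Solyc06g076630.3 was at 111 and 101 FPKM at 3 h, 29.7 and 26.7 at 12 h and 53.3 and 42.8 at 24 h, and Solyc10g076220.3 at 31.6 and 39.6, then 101 and 100, then 130 and 79.8. Genes of the Casparian strip and suberin, the barriers of the endodermis, rose in 4 (12.5%) and fell in 4 of 32 cases, both below the shares of all tested genes, with a median of 0.02 that ranged from -0.06 to 0.06. One CASP-like gene, Solyc01g067330.3, fell from 45.2 and 41.9 FPKM to 24.7 and 30.7 at 12 h and 6.17 and 11.4 at 24 h, by 1.44 ± 0.22 (SE, log2). In the fit without replicate 1 of the shaded 3 h group, 7 phenylpropanoid genes rose and 6 fell, and 6 peroxidases rose and 7 fell. The falling peroxidases were 9 without replicate 2 of that group.

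Members of several transcription factor families rose more often than they fell, although most WRKY and ethylene response factor genes were not called. Of 51 tested WRKY genes, a plant family active in defence and stress, 21 rose (41.2%, against 17.0% of all tested genes) and 0 fell, with a median log2 change of 0.47 in shade and 0.03 without it. The WRKY transcription factor 81 gene, Solyc09g015770.3, was at 16 and 16.6 FPKM at 3 h, 43.5 and 66.4 at 12 h and 27.0 and 24.8 at 24 h. WRKY gene Solyc08g081610.4 was at 4.79 and 5.17, then 9.75 and 10.3, then 27.6 and 15.3 FPKM, while it was at 4.05 to 11.2 without shade. The first was highest at 12 h and the second at 24 h, and they changed by 1.15 ± 0.19 and 1.37 ± 0.23 (SE, log2). Of the WRKY genes 11 differed between the lights (21.6%, against 19.3% of all tested genes).

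Homeobox-leucine zipper factors rose in 15 (48.4%) and fell in 6 (19.4%) of 31 cases, against 17.0% and 23.0% of all tested genes, with a median of 0.40. Besides the HOX6 gene above, a second HOX6 gene, Solyc03g082550.3, went from 13.6 and 12.7 FPKM to 30.7 and 39.4 and then 56.1 and 47.5. HAT22, Solyc04g077220.3, went from 3.01 and 3.50 to 12.4 and 10.1 and then 14.3 and 10.3. Their log2 changes in shade were 1.62 ± 0.17 and 1.57 ± 0.17 (SE), against -0.41 and -0.22 without it. ROC5, Solyc03g026070.4, a homeobox factor of another subfamily, fell by 1.13.

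NAC factors, of which several act in stress and senescence, rose in 20 (36.4%) and fell in 8 (14.5%) of 55 cases. The shares of all tested genes were 17.0% and 23.0%. Solyc07g063410.3 was at 8.80 and 12.0 FPKM at 3 h, 36.5 and 42.7 at 12 h and 36.6 and 26.6 at 24 h. NAC domain-containing protein 2, Solyc04g005610.3, was at 19.7 and 32.8, then 83.1 and 86.0, then 84.2 and 88.0, and at 6.82 to 19.4 without shade. Both changed by about the same amount, 1.68 ± 0.17 and 1.70 ± 0.22 (SE, log2). Ethylene response factors rose in 17 (29.3%) and fell in 3 of 58 cases, with D.2, Solyc12g056590.2, going from 6.82 and 9.72 FPKM to 22.4 and 24.7 and then 28.6 and 24.7. Between the lights 29.1% of the NAC and 15.5% of the ethylene response factor genes differed, against 19.3% of all tested genes.

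MYB factors rose in 15 and fell in 7 of 52 cases and bHLH factors rose in 21 and fell in 13 of 100, shares closer to those of all tested genes. A bHLH gene, Solyc03g044460.1, went from 2.14 and 3.00 FPKM to 12.6 and 13.7 and then 14.7 and 17.9, by 2.14 ± 0.31 (SE, log2). A Myb gene, Solyc08g068320.3, fell from 11.8 and 10.3 to 4.76 and 3.76 and then 3.44 and 5.11 FPKM. Without replicate 1 of the shaded 3 h group 5 WRKY (9.80%), 7 homeobox-leucine zipper (22.6%), 12 NAC (21.8%), 8 ethylene response factor (13.8%), 3 MYB (5.77%) and 11 of 100 bHLH genes rose, against 6.77% of all tested genes, so the WRKY and MYB shares lay close to that of all genes. Falling MYB genes were 12 without replicate 2 of the shaded 24 h group, and falling NAC genes were 1 to 5 with either 3 h library, or replicate 1 of the 12 h or 24 h group, left out.

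Of 20 tested circadian clock genes 16 rose and 2 fell, against 17.0% and 23.0% of all tested genes. The median log2 change was 0.58 in shade and -0.01 without it. Between the lights 12 of the 20 differed, against 19.3% of all tested genes. LHY (Late elongated hypocotyl), Solyc10g005080.3, a morning-phase repressor in the Arabidopsis clock, was at 25.0 and 35.3 FPKM at 3 h, 3.63 and 2.77 at 12 h and 10.8 and 9.88 at 24 h in shade. Unshaded roots held 23.1 to 44.7 FPKM, above all later shaded libraries. The fall was 2.16 ± 0.16 on the log2 scale (SE), and the level at 24 h was higher than at 12 h (1.44 ± 0.19, limma adjusted p = 0.00732).

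GIGANTEA, known in Arabidopsis to link the clock to day length, was represented by Solyc12g056650.2, at 39.7 and 52.8 FPKM at 3 h, 105 and 97.6 at 12 h and 96.6 and 102 at 24 h. EARLY FLOWERING 4, of the evening complex in Arabidopsis, was represented by Solyc06g051680.1, at 125 and 125 FPKM, then 571 and 564, then 216 and 323. The first held its level and the second peaked at 12 h. Among photoreceptor and light signalling genes 9 of 42 rose (21.4%, against 17.0% of all tested genes) and 4 fell. Their median was -0.00 and ranged from -0.10 to 0.10. CONSTANS 1, Solyc02g089540.3, fell from 12.3 and 24.8 FPKM to 2.46 and 2.28 and then 3.51 and 5.14, while CONSTANS-LIKE 9, Solyc12g006240.2, rose from 12.4 and 15.0 to 34.7 and 31.4 and then 29.2 and 26.3. When replicate 1 of the shaded 3 h group was left out, 7 clock genes rose (35.0%, against 6.77%) and 2 fell, with a median of 0.39, and 3 light signalling genes rose and 6 fell.

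Ethylene, a gaseous hormone that restrains root elongation, is perceived by receptors that repress its pathway until it binds. Of 14 tested ethylene receptor and signalling genes 8 rose (57.1%, against 17.0% of all tested genes) and 0 fell. The median log2 change was 0.52 in shade and -0.26 without it, and 8 differed between the lights (57.1%, against 19.3%). An ethylene receptor gene, Solyc05g055070.4, was at 17.0 and 21.7 FPKM at 3 h, 29.2 and 30.7 at 12 h and 32.1 and 30.9 at 24 h, and at 17.6 to 24.3 without shade. EIN3-binding F-box protein 1, Solyc12g009560.2, which in Arabidopsis targets the ethylene master regulator EIN3 for degradation, was at 67.4 and 92.8, then 127 and 138, then 157 and 164 FPKM. EIL3, Solyc01g096810.3, of the EIN3 family itself, was at 49.0 and 70.6, then 111 and 110, then 98.5 and 100.

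Their log2 changes were 0.65 ± 0.10 for Solyc05g055070.4, 0.87 ± 0.13 for Solyc12g009560.2 and 0.82 ± 0.12 for Solyc01g096810.3 (SE). Of 15 ethylene synthesis genes 3 rose and 0 fell, the rising share near the 17.0% of all tested genes. The ACC oxidase gene Solyc02g036350.3, of the final step, went from 7.83 and 9.01 FPKM to 14.5 and 18.7 and then 21.9 and 33.8 (limma adjusted p = 0.00556, and 0.0622 without replicate 1 of the shaded 3 h group). Without that library 7 of 14 receptor and signalling genes and 0 synthesis genes rose, against 6.77% of all tested genes.

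Aux/IAA repressors, which hold back the auxin response, rose in 2 (11.1%) and fell in 4 (22.2%) of 18 cases, shares at or below those of all tested genes. Between the lights, however, 33.3% of them differed, against 19.3% of all tested genes. IAA26, Solyc03g121060.4, went from 44.2 and 42.1 FPKM to 85.8 and 118 and then 144 and 116, by 1.38 ± 0.15 (SE, log2), and was at 32.9 to 52.8 without shade. IAA14, Solyc09g083290.3, whose Arabidopsis counterpart represses lateral root initiation, fell from 363 and 319 FPKM to 229 and 259 and then 170 and 215. SAUR genes, early auxin-response genes, rose in 10 (21.7%) and fell in 3 (6.52%) of 46 cases, against 17.0% and 23.0% of all tested genes.

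Auxin transporters fell in 6 (33.3%, against 23.0% of all tested genes) and rose in 1 of 18 cases, with a median of -0.37. PIN7, Solyc10g080880.2, an efflux carrier, fell from 10.2 and 10.4 FPKM to 5.29 and 4.56 and then 4.02 and 4.84, by 1.00 ± 0.13 (SE, log2). PIN2, Solyc07g006900.2, which in Arabidopsis carries auxin in the root tip's outer layers, was at 31.1 and 25.2 FPKM at 3 h, 12.3 and 13.4 at 12 h and 0.333 and 10.3 at 24 h. The 24 h libraries were far apart, and the call was lost without replicate 1 of the shaded 3 h group (adjusted p = 0.0240, then 0.148), without replicate 2 of that group (0.0714), without replicate 1 of the 12 h group (0.0526) and in a fit to the compared groups alone (0.104). Without that library 1 auxin transporter and 2 Aux/IAA genes fell, and 6 SAUR genes rose. Without replicate 2 of the shaded 3 h group 2 transporters fell, and without replicate 1 of the shaded 12 h group 3 did.

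Cytokinin genes rose in 11 (28.2%, against 17.0% of all tested genes) and fell in 4 of 39 cases. Response regulator 7, Solyc06g048600.3, an early target of the hormone, fell from 17.4 and 13.6 FPKM to 3.89 and 4.82 and then 3.49 and 3.12, while another response regulator, Solyc05g014260.3, rose from 40.6 and 51.1 to 82.9 and 75.5 and then 118 and 125. Abscisic acid genes rose in 9 (32.1%) and fell in 2 of 28 cases. The receptor gene Solyc06g050500.2, described as PYL4-like, went from 46.5 and 51.2 FPKM to 93.4 and 93.5 and then 99.8 and 79.8, and 3 receptors were among the 4 members with the lowest adjusted p. Their log2 changes were 0.66 to 0.98.

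Gibberellin oxidases, which make or inactivate the hormone, rose in 2 (18.2%) and fell in 1 (9.09%) of 11 cases, against 17.0% and 23.0% of all tested genes. Gibberellin 20-oxidase-1, Solyc03g006880.3, a synthesis enzyme, fell from 3.34 and 2.48 FPKM to 1.08 and 0.717 and then 0.217 and 0.863. Jasmonate genes rose in 4 (16.7%) and fell in 1 (4.17%) of 24 cases, the rising share again near that of all tested genes. Among the risers was the 12-oxophytodienoate reductase gene Solyc11g032130.3, a synthesis enzyme, by 0.90 ± 0.16 (SE, log2). In the brassinosteroid list of 5 genes the synthesis gene DET2, Solyc10g086500.1, fell from 26.5 and 20.8 FPKM to 12.2 and 11.2 and then 8.70 and 8.59, and 1 gene rose. Without replicate 1 of the shaded 3 h group 5 cytokinin (12.8%), 5 abscisic acid (17.9%), 2 jasmonate (8.33%) and 0 gibberellin genes rose, against 6.77% of all tested genes. Rising cytokinin genes were 7 without replicate 2 of that group.

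**Figure D4:**
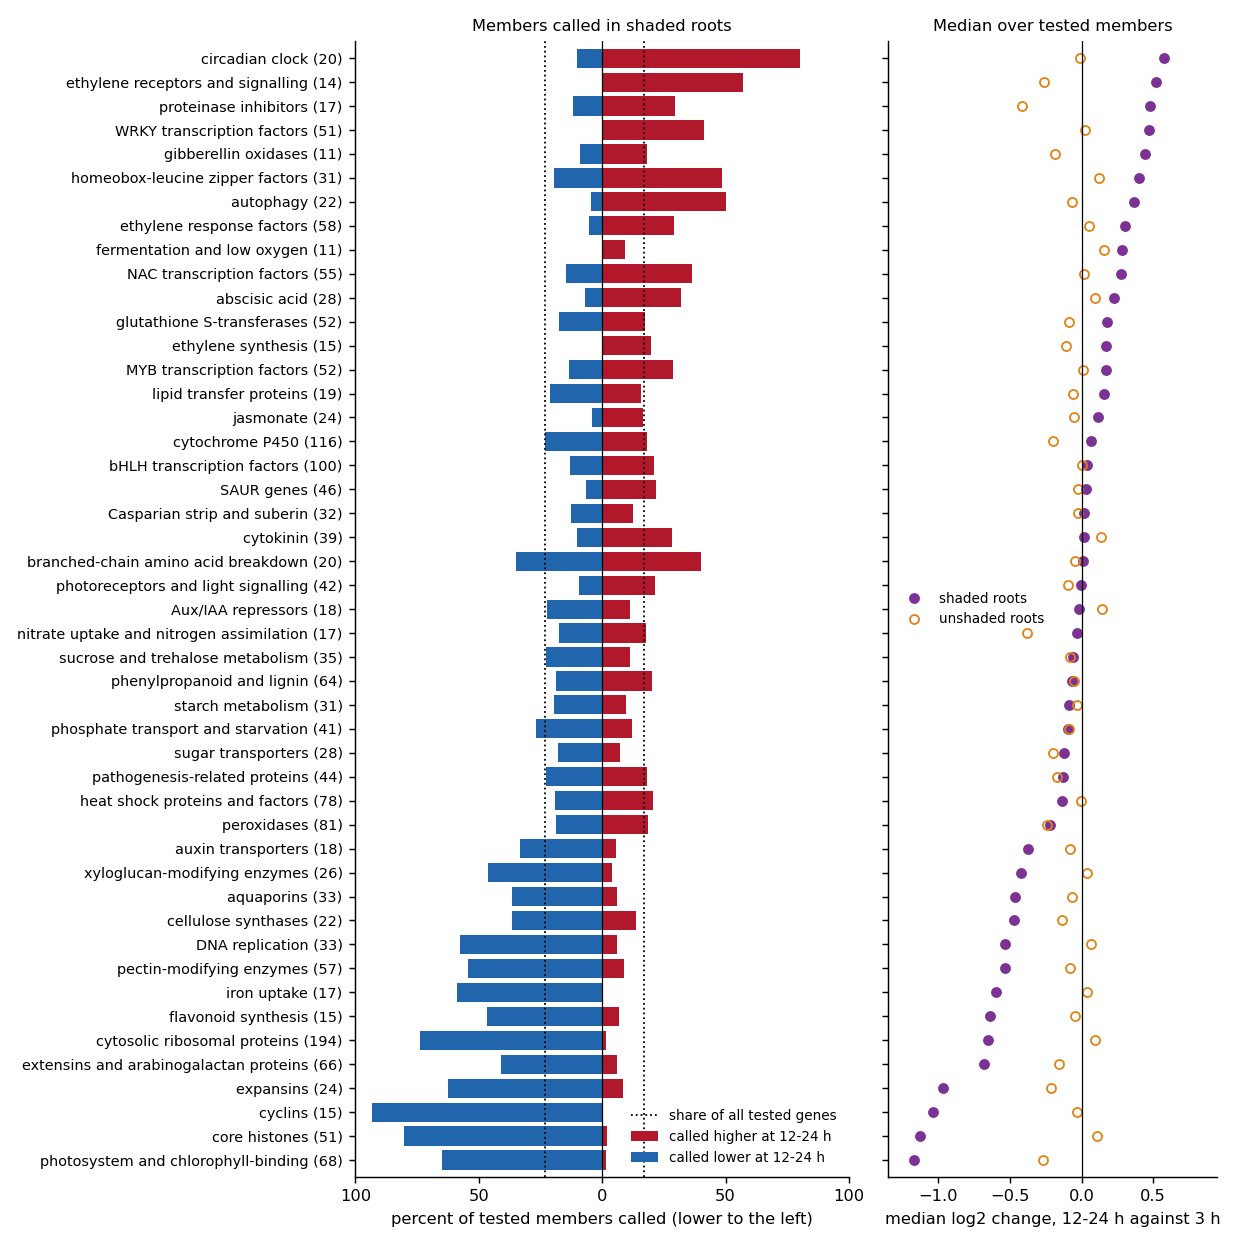
Left, the percent of tested members of each gene list that were called higher (right) or lower (left) at 12-24 h than at 3 h in shade, with dotted lines at 17.0% and 23.0%, the shares of all tested genes. Right, the median log2 change of the members in shaded (filled) and unshaded (open) roots, which in shade runs from -1.17 for photosystem genes to 0.58 for clock genes, for lists of at least 10 tested members given in brackets.

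Genes of the iron uptake list fell in 10 (58.8%, against 23.0% of all tested genes) and rose in 0 of 17 cases. The median log2 change was -0.60 in shade and 0.03 without it. The list mixes uptake with storage, as 8 of the 17 are described as vacuolar iron transporters or like them. Of the other 9 tested genes 0 were called in the difference between lights. Tomato reduces ferric iron at the root surface and takes up the ferrous form. The ferric-chelate reductase gene Solyc01g094910.3 was at 7.91 and 18.6 FPKM at 3 h, 0.451 and 0.0593 at 12 h and 0.899 and 0 at 24 h, and the iron-regulated transporter 1 gene, Solyc02g069200.3, at 11.7 and 35.9, then 1.51 and 1.11, then 2.31 and 0.0394. Both levels differed between the libraries at 3 h, with replicate 2 the higher. Their log2 changes were -3.34 ± 0.66 and -3.39 ± 0.81 (SE, limma adjusted p = 0.00319 and 0.00784). Neither was called in the difference between lights (adjusted p = 0.0664 and 0.173).

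Of the 17 iron genes 6 differed between the lights (35.3%, against 19.3% of all tested genes), all with the lower change in shade. All 6 are described as vacuolar iron transporters or like them, proteins that store iron away from the cytosol. This grouping was made after the values were seen, and it holds 8 tested genes, of which the other 2 were not called in the difference. Solyc01g104810.2 was at 18 and 27.3 FPKM at 3 h, 7.10 and 7.01 at 12 h and 6.68 and 5.73 at 24 h in shade. Without shade it was at 4.60 and 6.67, then 17.9 and 20.6, then 13.8 and 24.6. The lights thus started with shaded roots higher and ended with shaded roots lower, and the difference between the changes was -3.20 on the log2 scale (limma adjusted p = 0.00442). The neighbours by number Solyc01g104800.2, Solyc01g104820.4 and Solyc01g104830.2 also differed between the lights (adjusted p = 0.00846, 0.00791 and 0.00418), and reads shared between such copies could not be told apart here. Without replicate 2 of the shaded 3 h group 5 iron genes fell, and without replicate 1 the count was 9 (52.9%, against 10.0% of all tested genes).

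Aquaporins, the water channels, fell in 12 (36.4%) and rose in 2 (6.06%) of 33 cases, against 23.0% and 17.0% of all tested genes. The median was -0.46 in shade and -0.07 without it. Plasma membrane intrinsic protein 2.9, Solyc10g055630.2, was at 582 and 483 FPKM at 3 h, 293 and 309 at 12 h and 155 and 195 at 24 h, and at 409 to 455 without shade. It kept falling from 12 to 24 h (-0.79, limma adjusted p = 0.026). Plasma membrane intrinsic protein 1.7, Solyc03g096290.3, fell in shade from 103 and 91.4 FPKM to 23.4 and 22.1 and stood at 67.3 and 41.9 at 24 h. Its level was also lower at the later times without shade, with a log2 change of -1.06.

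Lists for phosphate, starch and sugars changed at shares near or below those of all tested genes (23.0% lower and 17.0% higher). Phosphate transport and starvation genes fell in 11 (26.8%) and rose in 5 (12.2%) of 41 cases. SPX domain-containing protein 1, Solyc08g060920.4, of the phosphate-sensing family, fell from 15.8 and 16.4 FPKM to 9.71 and 10.2 and then 6.83 and 7.82. Of 31 starch genes 6 fell (19.4%) and 3 rose (9.68%), with the beta-amylase gene Solyc08g007130.4, of starch breakdown, going from 8.17 and 15.0 FPKM to 2.64 and 2.24 and then 3.11 and 4.09. Sugar transporters fell in 5 (17.9%) and rose in 2 (7.14%) of 28 cases, with the tonoplast monosaccharide transporter 1 gene Solyc03g032040.3 falling by 0.83 ± 0.13 (SE, log2).

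In the sucrose and trehalose group 8 of 35 genes fell (22.9%) and 4 rose (11.4%). The sucrose synthase gene Solyc07g042550.3, whose enzyme opens sucrose for use in sink tissue, rose from 228 and 296 FPKM to 403 and 366 and then 529 and 626, and was at 279 to 370 without shade. Trehalose-6-phosphate synthase 1, Solyc07g006500.3, which makes a sugar signal, was at 33.5 and 53.1, then 105 and 114, then 75.9 and 69.2. Branched-chain amino acid breakdown rose in 8 (40.0%) and fell in 7 (35.0%) of 20 cases, against 17.0% and 23.0% of all tested genes. Isovaleryl-CoA dehydrogenase, Solyc11g069180.2, of the leucine branch, was at 59.9 and 69.7 FPKM at 3 h, 192 and 214 at 12 h and 114 and 91.3 at 24 h, a peak at 12 h like that of the 2-oxoisovalerate dehydrogenase gene above.

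Autophagy genes, which recycle cell contents when nutrients or energy are short, rose in 11 and fell in 1 of 22 cases. The shares of all tested genes were 17.0% and 23.0%. The median was 0.36 in shade and -0.07 without it. The changes were small: an autophagy-related gene, Solyc10g006270.4, was at 94.8 and 85.7 FPKM, then 155 and 164, then 147 and 123, and autophagy-related protein 3, Solyc06g034160.3, changed by 0.37 ± 0.07 (SE, log2). With replicate 1 of the shaded 3 h group left out, 4 autophagy genes rose (18.2%, against 6.77% of all tested genes), and without replicate 1 of the shaded 12 h or 24 h group 7 did. In the first case 7 aquaporins, 6 phosphate genes, 4 starch genes and 3 sucrose and trehalose genes fell. With replicate 2 of the 3 h group left out 3 sucrose and trehalose and 7 phosphate genes fell, and in the branched-chain list 4 genes rose and 4 fell with either 3 h library left out.

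Nitrogen genes rose in 3 (17.6%) and fell in 3 of 17 cases, near the shares of all tested genes. Asparagine synthetase, Solyc04g055200.3, fell from 50.1 and 35.4 FPKM to 13.7 and 14.7 and then 7.70 and 14.7, whereas an asparagine synthase family gene, Solyc05g012200.3, rose from 13.2 and 15.0 to 27.4 and 27.6 and then 31.5 and 28.4. An ammonium transporter gene, Solyc10g076480.2, rose by 0.98 ± 0.16 (SE, log2). The median of the list was -0.03 and ranged from -0.15 to 0.21 over the alternatives.

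Of 44 pathogenesis-related genes 10 fell (22.7%) and 8 rose (18.2%), close to the shares of all tested genes (23.0% and 17.0%). The pathogenesis-related 5-like gene Solyc08g080670.1, of the thaumatin-like family, was at 139 and 156 FPKM at 3 h, 505 and 557 at 12 h and 497 and 506 at 24 h in shade, and a chitinase gene, Solyc10g055800.2, at 142 and 148, then 362 and 470, then 429 and 376. Both reached a higher level by 12 h and held it. The pathogenesis-related protein gene Solyc02g065470.1 fell instead, from 89.8 and 57.2 FPKM to 28.3 and 21.9 and then 18.6 and 22.1.

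Proteinase inhibitors rose in 5 (29.4%, against 17.0% of all tested genes) and fell in 2 of 17 cases. Of the 17 genes 5 differed between the lights (29.4%, against 19.3% of all tested genes), with medians of 0.48 in shade and -0.41 without it. The ethylene-responsive proteinase inhibitor gene Solyc08g080630.4 went from 64.1 and 67.7 FPKM to 236 and 333 and then 174 and 150 in shade. Without shade it was at 74.9 and 85.5, then 77.9 and 51.1, then 27.3 and 23.3. The lights ended far apart, and the change in shade was 1.68 ± 0.18 (SE, log2).

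Heat shock, glutathione S-transferase, cytochrome P450 and lipid transfer protein genes were called at shares near those of all tested genes. Heat shock proteins and factors rose in 16 (20.5%) and fell in 15 (19.2%) of 78 cases. A heat shock transcription factor gene, Solyc08g062960.4, was at 5.72 and 6.53 FPKM, then 26.2 and 30.6, then 17.1 and 18, by 1.71 ± 0.14 (SE, log2), and the cognate HSC70 gene Solyc10g086410.3, a housekeeping chaperone, rose by 0.74 ± 0.08. Glutathione S-transferases, which conjugate toxins, rose in 9 (17.3%) and fell in 9 of 52 cases. Cytochrome P450 genes rose in 21 (18.1%) and fell in 27 (23.3%) of 116 cases, and lipid transfer proteins rose in 3 (15.8%) and fell in 4 (21.1%) of 19. In the fermentation list 1 of 11 genes rose (9.09%, against 17.0% of all tested genes). It was the alcohol dehydrogenase gene Solyc06g059740.4, from 24.3 and 31.7 FPKM to 122 and 73.7 and then 53.2 and 202. Its call was lost without replicate 1 of the shaded 3 h group (adjusted p = 0.0127, then 0.110). Without that library 3 pathogenesis-related (6.82%), 3 proteinase inhibitor (17.6%), 8 heat shock (10.3%), 2 glutathione S-transferase (3.85%) and 5 cytochrome P450 genes (4.31%) rose, against 6.77% of all tested genes. Falling pathogenesis-related genes were 16 without replicate 2 of the shaded 24 h group.

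Fewer genes differed between 12 and 24 h in shade than between either time and 3 h. At 12 h 6337 genes (31.0%) differed from 3 h and at 24 h 7402 (36.3%), whereas 449 (2.20%) differed between 12 and 24 h, 243 higher at 24 h (1.19%) and 206 lower (1.01%). Which direction held more genes depended on the setting, with 241 higher and 265 lower after scaling by the median of ratios, 311 and 181 with FPKM sums made equal and 485 and 931 without replicate 2 of the 24 h group. In unshaded roots 2 genes (0.00980%) differed between 12 and 24 h, both lower at 24 h, with 1540 at an unadjusted p under 0.05. At 6 h 1 gene (0.00490%) differed from 3 h, with 3983 at an unadjusted p under 0.05. It was Solyc09g011160.4, of the RCC1 family, at 6.32 and 5.35 FPKM at 3 h, 24.6 and 20.6 at 6 h and 3.42 to 7.82 later. The count between 12 and 24 h rested on single libraries: it was 33 without replicate 1 and 1416 without replicate 2 of the 24 h group, and 42 and 51 without replicates 1 and 2 of the 12 h group. The 12 h count was 2512 and the 24 h count 3224 without replicate 1 of the 3 h group, and 3519 and 2795 at 12 h without each 12 h library and 3308 at 24 h without replicate 1 of the 24 h group.

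Nitrogen genes were among those that rose from 12 to 24 h in shade. Of 17 nitrogen genes 6 were higher at 24 h than at 12 h and 0 lower, with a median log2 change of 0.46, against 1.19% and 1.01% of all tested genes. In unshaded roots limma called 0 of the 17 over this step, with 6 at an unadjusted p under 0.05, and the median was 0.08. The list had a similar course in time in both lights, with median levels of 65.5, 36.6 and 71.6 FPKM at 3, 12 and 24 h in shade and of 68.6, 42.9 and 61.2 without it. The change from 12 to 24 h differed between the lights for 1 of the 17, against 0.142% of all tested genes (29 genes). This test was added after the values were seen, and these single genes were not refitted without single libraries.

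Nitrite reductase 2, Solyc10g050890.2, which makes ammonium from nitrite, was at 235 and 259 FPKM at 3 h, 123 and 124 at 12 h and 306 and 280 at 24 h in shade. Without shade it was at 484 and 519, then 333 and 328, then 450 and 481. It was lowest at 12 h in both lights, and the change from 12 to 24 h was 1.24 ± 0.10 in shade (SE, log2, limma adjusted p = 0.00055) and 0.49 ± 0.10 without it (adjusted p = 0.207). The difference between these changes was not called (adjusted p = 0.102). A glutamate synthase gene, Solyc03g083440.4, of ammonium assimilation, was at 175 and 292, then 174 and 152, then 471 and 449 FPKM in shade and at 479 and 490, then 273 and 271, then 329 and 366 without it.

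The others were a high-affinity nitrate transporter, Solyc03g112100.3, at 118 and 127 FPKM at 12 h and 329 and 196 at 24 h, a glutamate dehydrogenase, Solyc06g033860.2, and the glutamine synthetases Solyc01g080280.3 and Solyc11g011380.2. Their log2 changes from 12 to 24 h were 1.04, 1.99, 0.93 and 0.61 in shade and -0.54, -0.40, 0.11 and -0.56 in unshaded roots. Solyc11g011380.2 was the gene whose change over this step differed between the lights (limma adjusted p = 0.0382). It was at 253 and 270 FPKM at 12 h and 421 and 380 at 24 h in shade, and at 452 and 459 and then 323 and 294 without it. Cytokinin oxidase 2, Solyc10g017990.2, which breaks the hormone down, was at 2.25 and 3.11 FPKM at 12 h and 24.0 and 15.3 at 24 h.

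The largest rises from 12 to 24 h began with NIT2, Solyc08g007430.2. It was at 8.62 and 16.4 FPKM at 3 h, 5.76 and 5.95 at 12 h and 69.9 and 42.0 at 24 h in shade. In unshaded roots it went the other way, from 64.6 and 64.2 to 32.6 and 19.9 and then 18.8 and 17.8. The change from 12 to 24 h in shade was 3.01 ± 0.37 (SE, log2, limma adjusted p = 0.00527).

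A pectinesterase gene, Solyc02g081990.3, of pectin remodelling, was at 3.66 and 2.93 FPKM at 12 h and 37.5 and 24.3 at 24 h. The potassium transporter HAK5, Solyc12g005670.2, known for high-affinity uptake, was at 0.384 and 0.582 FPKM at 12 h and 11.6 and 6.14 at 24 h, against 1.55 to 2.32 without shade at 12 and 24 h. Groups at 12 and 24 h that do not overlap were a condition for naming these genes. The changes were 2.87 ± 0.25 and 2.68 ± 0.33 (SE, log2). An IAA-amido synthetase gene, Solyc02g092820.4, which conjugates auxin, and the Kirola gene Solyc05g046160.1 changed by 2.50 and 2.63.

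Among the falls from 12 to 24 h the calcium-binding protein CML38, Solyc11g071750.2, was at 1.48 and 1.12 FPKM at 3 h, 46.6 and 17.6 at 12 h and 0.812 and 2.1 at 24 h. Patatin, Solyc08g006860.3, a lipid-cleaving storage protein, was at 192 and 239 FPKM at 12 h and 4.82 and 56.5 at 24 h. A light-regulated protein gene, Solyc09g092110.4, was at 185 and 128 at 12 h and 21.8 and 14.6 at 24 h. Replicates were far apart at 12 h for CML38 and at 24 h for patatin, and the 3 changes were -3.65, -3.56 and -3.04 on the log2 scale. The undescribed gene Solyc02g070850.1 was listed at 12.2 and 9.24 FPKM at 12 h in shade and at 0 in all other libraries. It passed the filter only through the shaded libraries at 12 h.

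**Figure D5:**
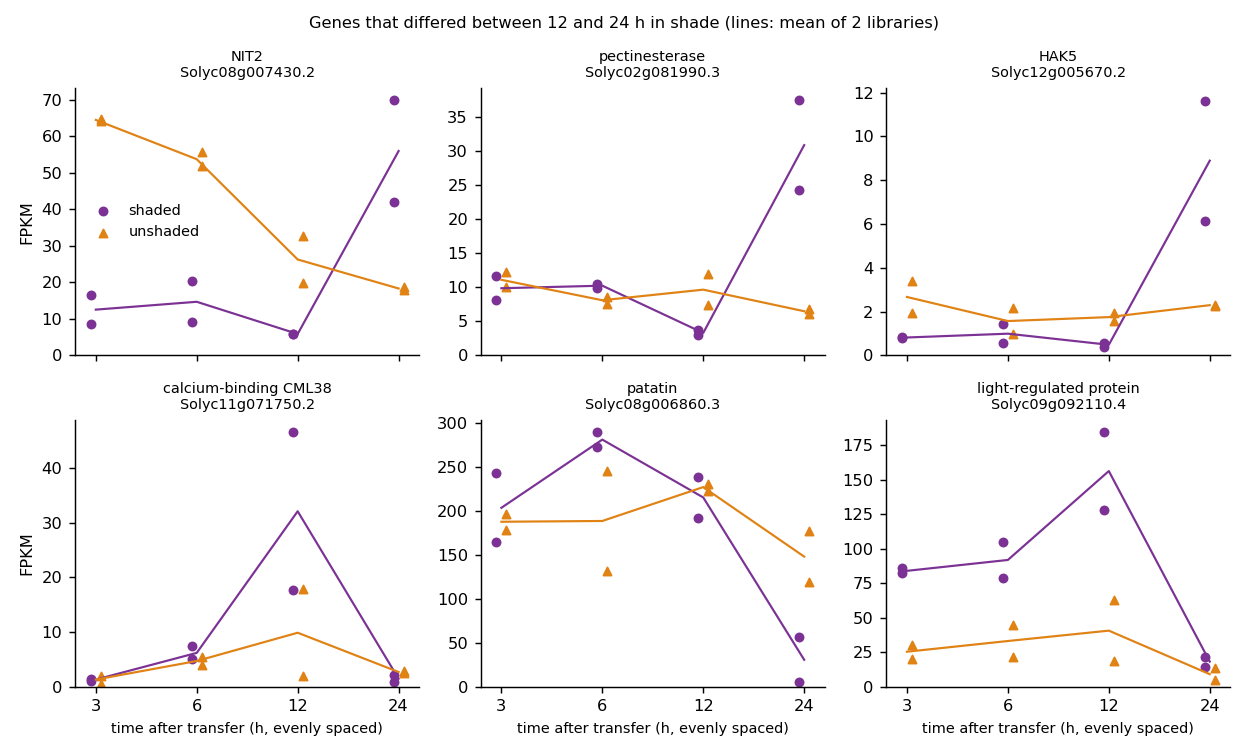
FPKM of 6 genes that differed between 12 and 24 h in shade, on linear axes against time after transfer in hours (evenly spaced), with 1 point per library, circles for shaded and triangles for unshaded roots, and lines through the mean of 2 libraries. NIT2 stands at 69.9 and 42.0 FPKM at 24 h in shade and CML38 at 46.6 and 17.6 at 12 h.

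The 7 calls in unshaded roots were all lost when replicate 1 of the unshaded 3 h group was left out. Of these 7 genes, 2 fell without shade and rose in shade. They were the pathogenesis-related 5-like gene Solyc08g080670.1 and Mlo1, Solyc04g049090.3, a membrane protein gene known for susceptibility to powdery mildew. Without shade Mlo1 was at 26.2 and 30.8 FPKM at 3 h, 21.0 and 16.2 at 12 h and 8.39 and 9.51 at 24 h, and in shade at 11.7 and 15.7, then 39.5 and 43.7, then 26.5 and 29.2. The methyltransferase gene Solyc07g053580.3 rose alike in both, by 0.67 in shade and 0.63 without it. Solyc07g056100.1 and Solyc03g096430.1, which have no known function in the table, fell without shade by 1.78 and 1.75 on the log2 scale. Solyc02g065570.1 and Solyc03g045120.1 were listed at 0 in both unshaded libraries at 3 h, so no fold change is given.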

How the data were processed

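Per the labels' protocols, tomato root RNA was extracted with the Promega ReliaPrep kit and made into standard Illumina libraries. The authors deposited 1 table of FPKM values for tomato, with 16 library columns matched to samples by title. Cufflinks 2.1.1 is named without a role in the submitters' processing notes, and the tomato genome build is not given in the sources used here. Gene descriptions are those of the table. Depth is relative: 65.6% of ratios of low values between libraries lay within 0.01 log2 of a ratio of small whole numbers, against 0.772% off that grid, and it was scaled to the geometric mean of the libraries.

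Values were analysed as log2(FPKM + 1), a scale on which fold changes of low genes are understated, for genes with a mean of at least 1 FPKM over 16 libraries. The linear model of limma 3.58.1 (R 4.3.3) held a mean for each of the 8 tomato groups, 2 libraries a group, with moderated variances that follow expression level, so groups shared 1 spread. Calls used a Benjamini-Hochberg adjusted p under 0.05 over all tested genes, and the script was tested on simulated data. An exact permutation test of 2 libraries against 2 or 4 cannot give a low p for a single gene.

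The members and gene lists were chosen with earlier results of these data known. Lists were matched by gene description and trimmed after the descriptions were seen, and the Rubisco small subunit pattern was completed after values were seen. Named genes are the 12 largest rises and falls in shade that were also called in the difference between lights, with groups that did not overlap and at least 5 FPKM in the higher group, the 5 largest rises and falls from 12 to 24 h, the 4 genes called without shade with the lowest adjusted p, and up to 4 called members of each list by adjusted p. Genes outside this rule (the gene called at 6 h, the unshaded calls beyond the first 4, EARLY FLOWERING 4, iron-regulated transporter 1, further iron transporters and the nitrogen genes called between 12 and 24 h) were chosen after their values were seen. The unshaded change from 12 to 24 h, and its difference from the shaded one, were tested after the values were seen. Alternatives were a pseudocount of 0.1, no filter, median-of-ratios scaling, equal sums, a fit to the compared groups alone, a replicate block, 3 h pooled with 6 h, and leaving out each library. Plots used matplotlib 3.10.9.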

Additional observations from a re-analysis of the deposited data

Results flagged for a closer look

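The pathogenesis-related 5-like gene Solyc08g080670.1 stood out because its effects of time differed between the lights in the interaction test. It rose by 1.80 on the log2 scale in shade and fell by 1.34 without it, a difference of 3.15 (limma adjusted p = 4.93e-05), and all 4 later libraries lay above both 3 h libraries in shade and below them without shade. Mlo1, Solyc04g049090.3, showed the same pattern with 1.26 and -1.08, a difference of 2.34 (limma adjusted p = 0.00121). The calls of both genes in unshaded roots were lost when replicate 1 of the unshaded 3 h group was left out. Groups held 2 libraries, so outlying samples within groups were not searched for.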

How the results depend on the processing

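Counts in shade stayed within 1.5 times the value reported in every setting that kept all libraries (for 12-24 h against 3 h, 5919 to 8269), except where only the groups compared were fitted: 24 h against 3 h then gave 385 genes and 24 h against 12 h gave 1, with 7144 and 3158 at an unadjusted p under 0.05. In unshaded roots the count was 15 without the filter, 19 with equal sums and 1 with only the groups compared. Leaving out 1 library gave 3432 to 8482 genes in shade, 0 to 75 in unshaded roots (1331 unadjusted at the lowest), 144 to 5171 for the difference between lights, 2512 to 5516 at 12 h, 3224 to 7097 at 24 h and 33 to 1416 between 12 and 24 h. The cause was not tested. In these fits a lone library is assumed to vary like the other groups. Equal sums moved the median of all genes at 12 h to -0.107. Of 209 called named genes 179 kept the call in every setting and 30 lost it in at least 1, 28 of them without replicate 1 of the shaded 3 h group. Named genes were picked for large changes or low adjusted p, so keeping the call says little about the other called genes. For single genes and for the lists, the difference between lights and the change from 12 to 24 h were not refitted without single libraries. Values not called in shade reversed for Solyc02g081990.3 (0.108 with all libraries, -0.126 to 0.342 leaving out 1, below 0 without replicate 1 of the shaded 3 h or 24 h group, there -0.126 and -0.0439) and Solyc07g056100.1 (-0.114 with 3 h and 6 h pooled). Medians of 14 of 49 lists changed sign in at least 1 setting. The replicate numbers did not pair the samples: replicate differences correlated by -0.169 to 0.158 between the 6 groups compared and by up to 0.248 over all 8 groups. With the replicate block 8045 genes were called in shade, 6 without shade, 3690 in the difference, 6203 at 12 h, 7256 at 24 h and 468 between 12 and 24 h.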
